A study of Rattus norvegicus with 6 samples.

Results

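The genes described here are 39 rat genes of the cell cycle and of DNA replication, fixed as a list of symbols, and they were followed in primary rat Leydig cells, the testosterone-producing cells between the seminiferous tubules. A gene was a member if the RefSeq accession given for a probe on the array mapped to its symbol. Probes were found for 35 of the 39 genes, 42 probes in all, out of 15168 genes with a symbol on the array. Mcm5, Top2a, Mki67 and Bub1b had no probe under this rule, so their RNA was not analysed here. Their promoters are among those searched below. The study compared 3 samples of Leydig cells kept for 24 h with 5 µg/ml of exosomes released by primary rat Sertoli cells with 3 samples that received none and are called untreated. Both groups were cells of Sprague-Dawley rats kept in F12/DMEM with 10% fetal bovine serum, penicillin and streptomycin at 34 °C under 5% CO2. Whether the replicates of a group were taken from different rats or culture dishes is not stated in the labels, and the spread behind each p-value may therefore be technical.

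A cell that divides copies its DNA once and then separates the copies. In the G1 phase, D-type cyclins with Cdk4 or Cdk6 and cyclin E with Cdk2 phosphorylate the retinoblastoma protein, which releases E2F factors, while Cdk inhibitors oppose these kinases. The origin recognition complex, Cdc6 and Cdt1 load the Mcm helicase ring onto origins, and ribonucleotide reductase, thymidylate synthase and thymidine kinase supply the nucleotides. Cyclin A and cyclin B with Cdk1, Plk1 and the Aurora kinases then drive mitosis, and the Bub proteins watch over chromosome attachment. Adult Leydig cells in the testis rarely divide. By these roles the list holds 14 replication genes, 12 genes of G1 control and 13 genes of mitosis, of which 13, 12 and 10 had a probe.

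Promoters of 6 of these genes are shown because they hold, or lack, letters known from the promoters of replication and mitosis genes. RefSeq promoter sequences of assembly GRCr8, 300 bases each with 250 before and 50 after the annotated start, were matched by symbol for 28 of the 39 genes. They were searched on both strands for the E2F site letters GGCGGGAA and TTTGGCGC, for TTTGAA, the core of the cell cycle homology region (CHR) of mitotic promoters, and for CCAAT, the site of the factor NF-Y. In the sequences below capitals mark these matches, and 1 pair of matches overlapped among all member promoters.
Mcm6 (chr13:42404303-42404602, minus strand): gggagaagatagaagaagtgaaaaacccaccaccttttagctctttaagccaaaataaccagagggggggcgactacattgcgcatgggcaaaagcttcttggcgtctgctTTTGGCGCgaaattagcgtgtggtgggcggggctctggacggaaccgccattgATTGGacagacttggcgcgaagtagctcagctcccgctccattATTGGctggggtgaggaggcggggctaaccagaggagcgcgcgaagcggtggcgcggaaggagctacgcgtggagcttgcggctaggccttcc
Tyms (chr9:120776034-120776333, minus strand): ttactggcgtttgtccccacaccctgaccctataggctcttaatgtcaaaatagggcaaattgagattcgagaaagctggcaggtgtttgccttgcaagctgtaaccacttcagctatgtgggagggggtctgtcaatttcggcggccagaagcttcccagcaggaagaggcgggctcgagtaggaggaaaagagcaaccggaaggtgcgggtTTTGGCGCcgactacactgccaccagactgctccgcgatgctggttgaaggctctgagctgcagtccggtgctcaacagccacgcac
Mcm2 (chr4:122918045-122918344, minus strand): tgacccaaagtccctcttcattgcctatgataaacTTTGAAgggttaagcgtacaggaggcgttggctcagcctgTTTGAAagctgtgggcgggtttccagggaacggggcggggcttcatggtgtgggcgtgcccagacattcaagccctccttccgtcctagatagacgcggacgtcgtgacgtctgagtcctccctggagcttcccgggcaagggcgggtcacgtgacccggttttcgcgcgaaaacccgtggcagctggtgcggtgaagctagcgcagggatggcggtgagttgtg
Cdk1 (chr20:19265043-19265342, plus strand): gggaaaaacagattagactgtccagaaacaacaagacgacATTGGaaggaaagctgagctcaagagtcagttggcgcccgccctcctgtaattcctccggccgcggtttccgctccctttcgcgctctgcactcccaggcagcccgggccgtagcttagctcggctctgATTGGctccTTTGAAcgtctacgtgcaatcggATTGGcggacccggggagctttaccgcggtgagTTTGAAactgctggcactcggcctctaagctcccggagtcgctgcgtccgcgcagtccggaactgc
Ccnb2 (chr8:79981609-79981908, minus strand): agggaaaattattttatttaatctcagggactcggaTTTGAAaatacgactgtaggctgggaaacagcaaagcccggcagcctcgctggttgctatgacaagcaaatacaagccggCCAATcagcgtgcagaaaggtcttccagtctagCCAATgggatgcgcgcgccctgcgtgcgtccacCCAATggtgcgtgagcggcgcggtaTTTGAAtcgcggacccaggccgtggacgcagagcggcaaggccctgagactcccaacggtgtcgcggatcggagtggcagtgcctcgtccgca
Aurka (chr3:181560720-181561019, minus strand): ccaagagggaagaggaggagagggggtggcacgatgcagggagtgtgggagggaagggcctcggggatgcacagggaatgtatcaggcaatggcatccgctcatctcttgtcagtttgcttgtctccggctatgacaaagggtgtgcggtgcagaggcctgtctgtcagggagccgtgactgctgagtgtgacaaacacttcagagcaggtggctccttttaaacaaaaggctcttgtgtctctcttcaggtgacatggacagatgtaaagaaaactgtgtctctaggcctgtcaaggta
TTTGGCGC stood in 4 of 10 replication promoters, as in Mcm6 and Tyms above, and in 0 of 7 G1 and 0 of 11 mitosis promoters. It stood in 0.521% of all 27457 promoters of this length. TTTGAA stood in 8 of 11 mitosis promoters, as in Cdk1 and Ccnb2, against 1 of 10 replication and 0 of 7 G1 promoters, and in 18.1% of all. Genes without a probe are among these matches: Mcm5 for TTTGGCGC, and Top2a, Mki67 and Bub1b for TTTGAA. The other motifs did not follow the roles in this way. CCAAT stood in 6 of 10 replication, 3 of 7 G1 and 8 of 11 mitosis promoters, 60.7% of members against 37.7% of all. GGCGGGAA stood in 2 of 10, 2 of 7 and 0 of 11, 14.3% of members against 2.02% of all. Not every member held the letters of its role: the replication promoter with TTTGAA was that of Mcm2, and the Aurka window held none of the motifs. Only these exact letters were searched. Other spellings of the same sites were not counted, so a promoter without a match, such as that of Mcm2 for E2F, may still hold such a site. Whether the annotated Aurka start is the one used in these cells was not tested, so the lack of motifs concerns that window only. Of the genes whose sequences are shown, Mcm2, Mcm6 and Aurka passed the test described below, and Tyms, Cdk1 and Ccnb2 did not.

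Each sample was read on 1 one-colour array, on which the scanner software marked 67.2% to 75.6% of gene spots as well above background and 0 as saturated. Values are log2 intensities relative to the 75th percentile of the same array, so that a value of 1 is double that percentile, and differences are exosome minus untreated, with the SE of a fit to 3 arrays in each group. Probes marked well above background on 3 or more of the 6 arrays were tested with limma. A gene was read from its brightest tested probe, and it passed at an adjusted p under 0.05 over all tested probes. Of 10981 tested genes 14.6% passed as higher and 29.0% as lower with exosomes, 43.6% in all, and the median difference of all tested genes was −0.19. That shift depended on signal: by 4 equal groups of genes by mean signal, from the dimmest to the brightest, the median difference was −0.59, −0.36, −0.05 and 0.15, whereas quantile normalization put it between −0.04 and 0.22 in every group. The file headers give 3 scans, each holding arrays of 1 group: the 3 untreated arrays shared a scan, exosome 1 and 2 shared another and exosome 3 had its own. Scan and treatment therefore cannot be told apart.

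Of the 35 members with a probe, 32 were tested, 28 of them well above background on all 6 arrays. On the brightest probe of each gene, 5 members were higher with exosomes, namely Rrm2, Mcm4, Ccne1, Ccna2 and Aurka. Another 8 were lower, namely Mcm2, Mcm6, Cdc6, Tk1, Ccnd1, Ccnd2, Cdk2 and Cdk4. These are 15.6% and 25.0% of the tested members, against 14.6% and 29.0% of all tested genes. The 13 together are 40.6%, against 43.6%, so the share of members that changed was near the background in both directions. The second probes of Rrm2, Mcm4, Mcm2 and Ccna2, described below, did not pass, and those of Rrm2 and Mcm4 had the opposite sign. All arrays of 1 group lay above all of the other for 20 members (62.5%), against 61.9% of all tested genes. Among members Rrm2 alone differed by over 2-fold, while 1203 of the 10981 tested genes differed that much. These counts rested on single arrays of either group. Without untreated 2 the test called 128 of all tested genes higher and 789 lower, and 1 and 0 members. With all arrays it called 1603 and 3186 genes. Without untreated 3 it called 170 and 870 genes and 1 and 0 members. Without exosome 1 it called 371 and 1352 genes, with 1 member higher and 2 lower. Without exosome 3 it called 781 and 2369 genes, with 2 and 3 members. Without untreated 1 it called 1579 and 3256 genes, with 6 and 5 members. The other 19 tested members did not pass, which does not show that they were equal, since the median SE of a member was 0.17. As a rise, fall or missed test here counts RNA in bulk samples, fewer cells of a type and less RNA per cell cannot be told apart.

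**Figure D1:**
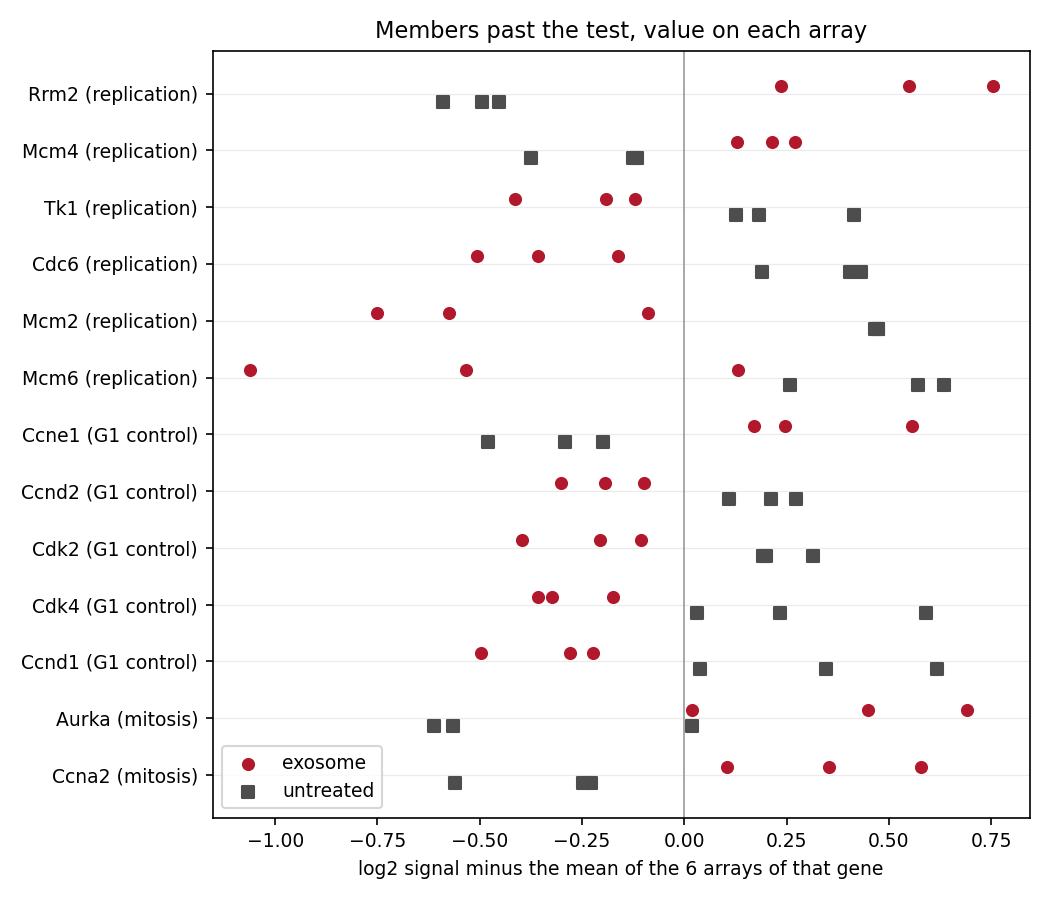
Signal of the 13 members past the test on each array, as log2 signal minus that gene's mean over the 6 arrays, with exosome arrays as circles and untreated arrays as squares. The groups are separate for every member but Aurka, where exosome 2 and untreated 1 coincide.

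Among replication genes the largest change on a brightest probe was a rise of Rrm2, the regulated small subunit of ribonucleotide reductase, which makes deoxyribonucleotides. Its brightest probe read 0.78, 0.47 and 0.98 on the exosome arrays, against −0.22, −0.26 and −0.36 on the untreated arrays. All exosome arrays lay above the 75th percentile and all untreated arrays below it. The difference was 1.02 ± 0.16, adjusted p = 0.0103, which is 2.03-fold higher, while a second, dimmer Rrm2 probe did not pass (−0.23 ± 0.14). In the authors' deposited table the same probe read 10.61, 10.31 and 10.72 on the exosome arrays and 9.56, 9.53 and 9.43 on the untreated arrays, on that table's own log2 scale. Rrm1, the large subunit, read −5.04, −4.92 and −3.51 on the exosome arrays, against −5.35, −4.54 and −4.66 on the untreated arrays. Exosome 3 stood above the rest there, the groups overlapped, and the difference was 0.36 ± 0.44, adjusted p = 0.533, or −0.13 without that array. Rrm2 passed the test in each of the fits that left out 1 array, with differences between 0.90 and 1.16. It lies in the second brightest signal group, where 21.6% of genes were higher.

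Of the enzymes that supply thymidylate, 1 fell and 1 missed the test. Tk1, thymidine kinase of the salvage route, read −2.46, −2.17 and −2.24 on the exosome arrays, against −1.63, −1.86 and −1.92 on the untreated arrays. It fell 1.40-fold (−0.48 ± 0.14, adjusted p = 0.0344), with no overlap between the groups, and it belongs to the second dimmest signal group, where 38.7% of genes were lower. Tyms, thymidylate synthase of the route that makes thymidylate anew, read −1.01, −1.03 and −0.89 on the exosome arrays, against −1.30, −1.23 and −1.52 on the untreated arrays. All its exosome arrays lay above the untreated ones, but it missed the threshold (0.38 ± 0.13, adjusted p = 0.051). Pcna, the sliding clamp of the replication fork, lay in signal group 4, the brightest, and did not pass (0.11 ± 0.12, adjusted p = 0.506). The call of Tk1 was lost without exosome 1 or 3 or untreated 1, 2 or 3 (−0.54 to −0.40), and with quantile normalization (−0.26), median centring (−0.26) and the authors' table (−0.25). Tyms passed under quantile normalization (0.51), median centring (0.60) and normexp (0.31).

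The Mcm ring, which unwinds DNA ahead of the fork, needs all its subunits. On their brightest probes Mcm2 and Mcm6 passed as lower, and Mcm4 alone passed as higher. Mcm2 read −2.67, −2.19 and −2.85 on the exosome arrays, against −1.62, −1.63 and −1.62 on the untreated arrays. The untreated arrays were almost equal and the exosome arrays all lower, a fall of 1.92-fold (−0.94 ± 0.18, adjusted p = 0.0132). Mcm6 read −4.88, −4.22 and −5.41 on the exosome arrays, against −4.09, −3.71 and −3.78 on the untreated arrays, and was well above background on 2 exosome and 3 untreated arrays. It fell 1.97-fold (−0.98 ± 0.30, adjusted p = 0.0402), in the dimmest signal group, where 37.8% of genes were lower, with the exosome arrays spread over more than a log2 unit. Mcm4 read −0.96, −1.10 and −1.02 on the exosome arrays, against −1.61, −1.35 and −1.36 on the untreated arrays, a rise of 1.33-fold (0.41 ± 0.13, adjusted p = 0.0395) with no overlap. Mcm3 and Mcm7 did not pass on their brightest probes (0.44 ± 0.19 and 0.15 ± 0.11). Mcm2 missed the test without untreated 2 or 3 (−0.94), although its difference hardly moved, and it lies in the second dimmest signal group, where 38.7% of genes were lower. Mcm6 missed it without exosome 1 or 3 or untreated 1, 2 or 3 (−1.09 to −0.69), and under median centring (−0.75), quantile normalization (−0.56) and the authors' table (−0.56). Mcm4 missed it without exosome 1 or 3 or untreated 1, 2 or 3 (0.32 to 0.45), and with its probes averaged (0.20). Its second probe did not pass (−0.01 ± 0.29). Mcm4 lies in the second brightest signal group, where 21.6% of genes were higher, so a difference in direction among the subunits is not established. Without untreated 1, Mcm3 passed as higher (0.61).

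Of the factors that load the ring, Cdc6 read −5.22, −5.42 and −5.57 on the exosome arrays, against −4.87, −4.66 and −4.63 on the untreated arrays. It fell 1.61-fold (−0.69 ± 0.14, adjusted p = 0.0144), and 2 exosome arrays and all 3 untreated arrays were well above background. Cdt1, its partner in loading, read −5.94, −5.49 and −6.50 on the exosome arrays, against −6.11, −4.90 and −4.82 on the untreated arrays, and its groups overlapped (−0.70 ± 0.41, adjusted p = 0.2). Orc1, the largest subunit of the origin recognition complex, was not well above background on any array. Cdc6 lies in the dimmest signal group, whose median difference was −0.59 and in which 37.8% of genes were lower, and its difference was −0.17 and did not pass under quantile normalization, and likewise with the authors' table (−0.17). It also missed the test without untreated 2 or 3 (−0.65 to −0.64). Cdt1 passed as lower without untreated 1 (−1.12).

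In G1 control, cyclins D1 and D2, Cdk4 and Cdk2 fell and cyclin E1 rose. Ccnd1, cyclin D1, which couples growth signals to the cycle, read −3.56, −3.34 and −3.29 on the exosome arrays, against −3.03, −2.72 and −2.45 on the untreated arrays. Ccnd2, cyclin D2, read −2.72, −2.63 and −2.83 on the exosome arrays, against −2.25, −2.42 and −2.32 on the untreated arrays. In both genes every exosome array lay below every untreated array, and the falls were 1.59-fold (−0.67 ± 0.18, adjusted p = 0.0267) and 1.32-fold (−0.40 ± 0.12, adjusted p = 0.0358). Both lie in the second dimmest signal group, where 38.7% of genes were lower. Cdk4, the kinase that D cyclins activate, read −0.47, −0.32 and −0.50 on the exosome arrays, against 0.44, −0.12 and 0.09 on the untreated arrays, a fall of 1.48-fold (−0.57 ± 0.17, adjusted p = 0.0356). Ccnd3, the remaining D-type cyclin, did not pass (0.11 ± 0.24, adjusted p = 0.722), and its untreated arrays ran between −0.94 and −0.03. Cdk6, the relative of Cdk4, was dim and did not pass (−0.19 ± 0.18, adjusted p = 0.415). Its sign was positive under quantile normalization (0.25), in the authors' table (0.25) and under median centring (0.03).

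The kinase and the cyclin of the G1 to S transition went opposite ways. Ccne1, cyclin E1, read −2.11, −2.19 and −1.80 on the exosome arrays, against −2.55, −2.65 and −2.84 on the untreated arrays, a rise of 1.57-fold (0.65 ± 0.15, adjusted p = 0.0193) with no overlap. Its partner Cdk2 read −1.43, −1.33 and −1.62 on the exosome arrays, against −1.03, −1.02 and −0.91 on the untreated arrays, a fall of 1.39-fold (−0.47 ± 0.13, adjusted p = 0.0267). The Cdk2 probe was spotted 10 times, and the SD among its spots within an array, a measure of spot noise alone, was 0.05 to 0.16. Ccne2, cyclin E2, was not well above background on any array. Ccne1 passed in all 5 scalings tried, and 9.36% of the genes in its signal group, the second dimmest, were higher. Both Cdk2 and Cdk4 lie in the second brightest group, where 26.6% of genes were lower. Cdk2 passed in all but median centring (−0.25), whereas Ccnd1, Ccnd2 and Cdk4 missed the test under quantile normalization (−0.37, −0.12 and −0.52), under median centring (−0.45, −0.17 and −0.35) and with the authors' table. Among the fits without 1 array, Ccne1 missed the test without exosome 1 or untreated 2 or 3 (0.57 to 0.69), Cdk2 without exosome 1 or 3 or untreated 2 or 3 (−0.49 to −0.39) and Ccnd1 without exosome 1 or untreated 2 or 3 (−0.66 to −0.53). Ccnd2 missed it without exosome 1 or 3 or untreated 1, 2 or 3 (−0.44 to −0.34), and Cdk4 without exosome 1 or 3 or untreated 1, 2 or 3 (−0.70 to −0.42).

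Among the 39 genes the restraints of G1 with a tested probe, Cdkn1b, Cdkn2c and Rb1, did not pass. Cdkn1b, an inhibitor of cyclin E and Cdk2, read 1.46, 1.46 and 1.44 on the exosome arrays, against 1.31, 1.19 and 1.25 on the untreated arrays, with 8 to 10 spots per array and an SD among spots of 0.02 to 0.06. Its exosome arrays all lay above the untreated ones (0.20 ± 0.11, adjusted p = 0.155), and it passed under median centring (0.43). Rb1, the retinoblastoma protein, read −3.94, −3.87 and −5.11 on the exosome arrays, against −3.58, −3.42 and −3.32 on the untreated arrays. All its exosome arrays were lower, exosome 3 by far, and the difference of −0.87 ± 0.34 missed the threshold (adjusted p = 0.0762). Without exosome 3 it was −0.46, and normexp, which let it pass, gave −0.48. Cdkn2c, an inhibitor of Cdk4 and Cdk6, and E2f1, an E2F activator, had differences of −0.30 ± 0.22 and −0.21 ± 0.14 and did not pass, and the sign of E2f1 was positive under median centring (0.01). Without exosome 2, Cdkn2c passed as lower (−0.54).

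Among 9 tested mitosis genes 2 rose, 0 fell and 7 did not pass, where 14.6% of all tested genes were higher and 29.0% lower. Quantile normalization gave 4 higher and 1 lower, where 20.2% and 16.1% of all tested genes passed. Ccna2, cyclin A2, which acts from S phase into mitosis, read −2.91, −3.16 and −2.68 on the exosome arrays, against −3.51, −3.49 and −3.82 on the untreated arrays. The groups did not overlap, and it rose 1.61-fold (0.69 ± 0.17, adjusted p = 0.0215). Aurka, the kinase of centrosomes and spindle poles, read −2.44, −2.87 and −2.20 on the exosome arrays, against −2.87, −3.45 and −3.50 on the untreated arrays, a rise of 1.71-fold (0.77 ± 0.24, adjusted p = 0.0424), with 1 untreated array level with the lowest exosome array. Both belong to the second dimmest signal group, in which the median difference was −0.36 and 9.36% of genes were higher and 38.7% lower. Ccna2 passed in all 5 scalings, and Aurka missed under normexp (0.36). Ccna2 missed the test without exosome 1 or 3 or untreated 2 or 3 (0.57 to 0.75), and Aurka without exosome 1 or 3 or untreated 2 or 3 (0.62 to 0.74).

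Birc5, which works with Aurora B in the chromosomal passenger complex, read −2.53, −2.81 and −1.90 on the exosome arrays, against −3.12, −2.77 and −3.04 on the untreated arrays. Bub1, the spindle checkpoint kinase, read −4.55, −5.04 and −4.92 on the exosome arrays, against −6.26, −5.08 and −5.36 on the untreated arrays, and was well above background on 3 exosome and 2 untreated arrays. Plk1, a kinase of mitotic entry and exit, read −2.73, −2.99 and −2.62 on the exosome arrays, against −2.81, −3.26 and −3.59 on the untreated arrays. The exosome means of these genes were higher, but none passed (adjusted p = 0.105, 0.103 and 0.146). Under quantile normalization Birc5 and Bub1 did, at 0.85 and 1.24. Plk1 passed without untreated 1 (0.64) and Birc5 without exosome 2 (0.76). Cdk1, the mitotic kinase, read 1.14, 1.16 and 1.30 on the exosome arrays, against 0.82, 0.97 and 1.07 on the untreated arrays over 9 or 10 spots per array, with no overlap and a difference that missed the test (0.25 ± 0.12, adjusted p = 0.146) and passed under median centring (0.47).

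The B-type cyclins, which Cdk1 also binds, did not pass. Ccnb1, cyclin B1, differed by −0.06 ± 0.17, and its sign was positive under median centring (0.16), with the authors' table (0.25) and with quantile normalization (0.25). Ccnb2, cyclin B2, read −4.18, −3.63 and −4.58 on the exosome arrays, against −3.83, −3.55 and −3.40 on the untreated arrays with a difference of −0.54 ± 0.26 (adjusted p = 0.131), and passed as lower without exosome 2 (−0.79) and under normexp (−0.33). Cdc20, which starts the destruction of cyclin B and securin, read 0.48, 0.58 and 0.77 on the exosome arrays, against 1.03, 0.90 and 0.91 on the untreated arrays. All its exosome arrays were below the untreated ones (−0.33 ± 0.13, adjusted p = 0.0711), and it passed as lower under quantile normalization (−0.36) and normexp (−0.34). Aurkb, the Aurora kinase of the chromosomal passenger complex, was well above background on 0 exosome and 2 untreated arrays and was not tested. It read −5.83, −5.45 and −7.19 on the exosome arrays, against −5.66, −4.93 and −4.76 on the untreated arrays, so the groups overlapped and no direction is given.

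**Figure D2:**
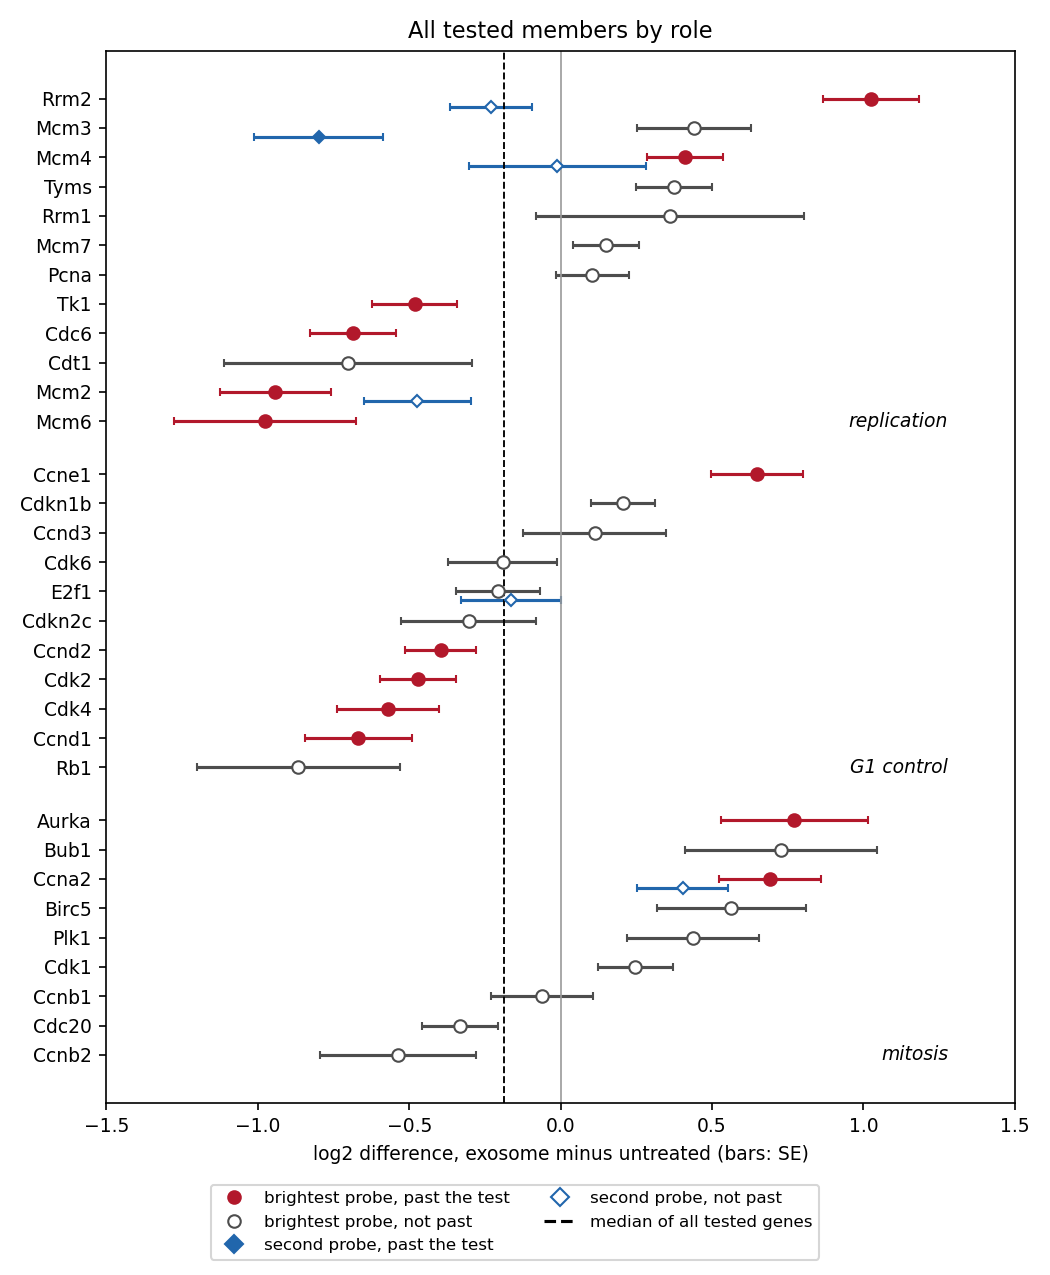
Log2 difference, exosome minus untreated, of the 32 tested members with its SE, grouped by role and ordered by size. Circles are the brightest probe of a gene and diamonds a second tested probe, filled where past the test. The dashed line is the median of all tested genes at −0.19, and mitosis genes lie mostly to its right.

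Second probes limit what can be said of several genes. Of the 7 members with 2 probes, 6 had both tested, and in 3 of these the probes had differences of opposite sign under the 75th percentile scaling. Over all 1493 genes with 2 tested probes 49.4% did, which is close to the share among members. Among the 265 of these genes whose probes both passed the test, 122 had differences of opposite sign. The sign of the brightest probe, passed or not, was therefore often not shared by the second. The second probe of Rrm2 read −3.24, −3.18 and −3.50 on the exosome arrays, against −3.17, −3.10 and −2.95 on the untreated arrays, and its difference of −0.23 ± 0.14 did not pass. Its sign was negative under normexp (−0.20) and median centring (−0.01), and positive, as for the first probe, under quantile normalization (0.08) and with the authors' table (0.08). Within each array, whatever its 75th percentile, the brighter Rrm2 probe exceeded the dimmer one by 4.02, 3.65 and 4.48 log2 units on the exosome arrays and by 2.95, 2.84 and 2.59 on the untreated arrays. The groups did not overlap in that gap, so the probes changed unequally. The rise given for Rrm2 is that of its brighter probe only.

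The probes of Mcm3 also changed unequally. Its second probe read −4.22, −3.79 and −3.58 on the exosome arrays, against −2.78, −3.12 and −3.29 on the untreated arrays and passed as lower (−0.80 ± 0.21, adjusted p = 0.0268), while the first read −0.86, −0.87 and −0.65 on the exosome arrays, against −0.89, −1.27 and −1.54 on the untreated arrays and did not pass (0.44 ± 0.19, adjusted p = 0.0985). The gap between them was 3.35, 2.92 and 2.93 on the exosome arrays, against 1.89, 1.85 and 1.74 on the untreated arrays. The probes had opposite signs in all 5 scalings, and the second did not pass under quantile normalization (−0.44), median centring (−0.58) or with the authors' table (−0.44), so no direction is given for Mcm3. The second probe of Mcm4 was well above background on 2 arrays of each group and did not pass (−0.01 ± 0.29), at −0.19 under normexp and positive in the other scalings. Both Ccna2 probes were positive in all 5 scalings, with a second difference of 0.40 ± 0.15 that did not pass under the 75th percentile and passed under quantile normalization (0.74). The second probe of Mcm2 differed by −0.47 ± 0.18 without passing, the same sign as the first, but by 0.08 under quantile normalization and 0.08 with the authors' table, where the first was −0.71 and −0.72. The second probe of E2f1 differed by −0.16 ± 0.17 without passing, by 0.06 under median centring, by 0.30 under quantile normalization and by 0.30 with the authors' table. When the tested probes of a gene were averaged, Rrm2, Mcm2 and Ccna2 passed at 0.40, −0.71 and 0.55, and Mcm4 missed at 0.20. The other members past the test had 1 tested probe each, and their direction rests on that probe, whose sign another probe of the gene might not share.

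**Figure D3:**
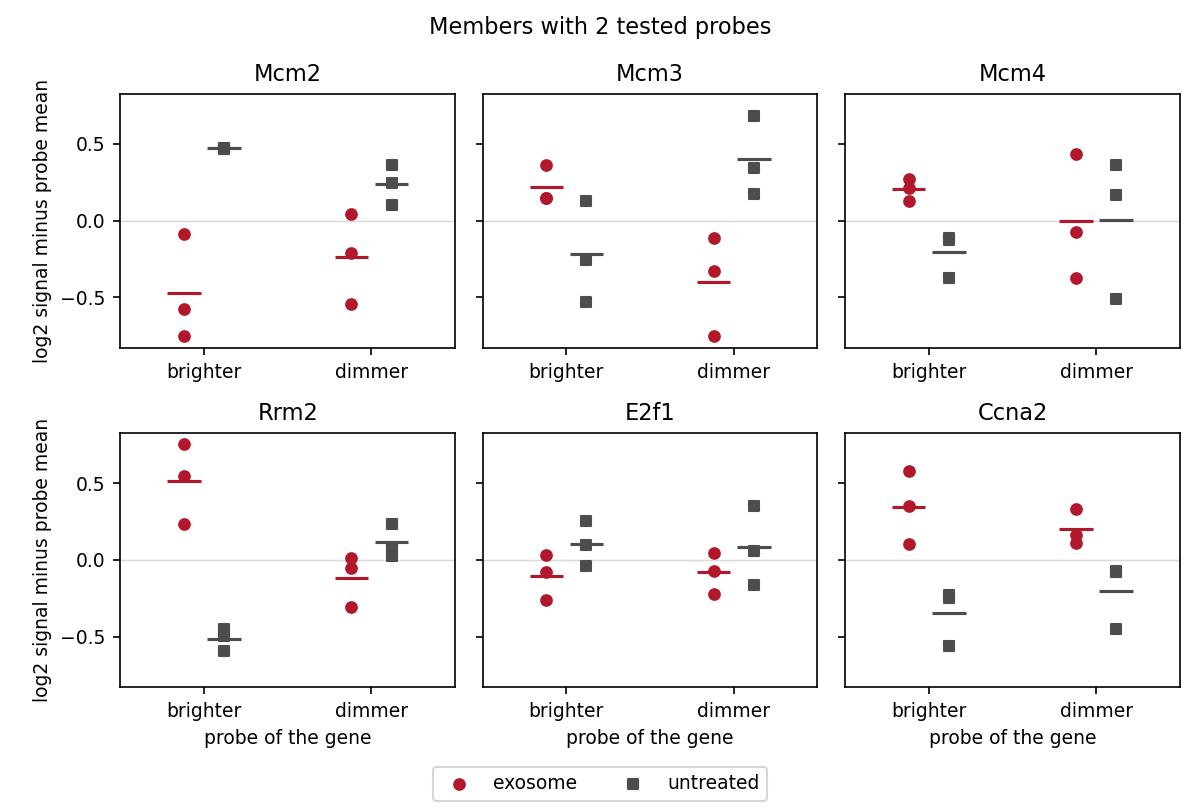
Signal of both tested probes of 6 members on each array, as log2 signal minus the mean of that probe, with exosome arrays as circles left of untreated arrays as squares and short lines at group means. In this scaling, relative to the 75th percentile, the brighter probe of Rrm2 and Mcm3 is higher and the dimmer lower in exosome-treated cells and both probes of Mcm2 and of Ccna2 share a sign, whereas under quantile normalization the second probes of Rrm2 (0.08) and Mcm2 (0.08) are slightly positive.

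Set beside each other, the roles differed in their medians. Of 9 tested mitosis genes 6 had a positive difference and the median was 0.44. Of 12 replication genes 7 were positive with a median of 0.13, which was −0.02 without exosome 3 and −0.04 with probes averaged, and of 11 G1 genes 3 were positive with a median of −0.30. The median of all tested genes was −0.19. In all 5 scalings the mitosis median lay above that of all tested genes, by 0.31 to 0.76, the replication median above it by 0.08 to 0.32, and the G1 median below it by an amount whose signed value was −0.12 to −0.05. These are descriptions of chosen genes and no test of the roles was made. The summed signal of the mitosis members with a probe, relative to the 75th percentile, was 4.48 to 5.16 on the exosome arrays and 4.49 to 4.63 on the untreated arrays, which overlap. That sum was mostly Cdk1 and Cdc20, whose differences had opposite signs (0.25 and −0.33, neither past the test). It therefore says little of the other mitosis members.

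**Figure D4:**
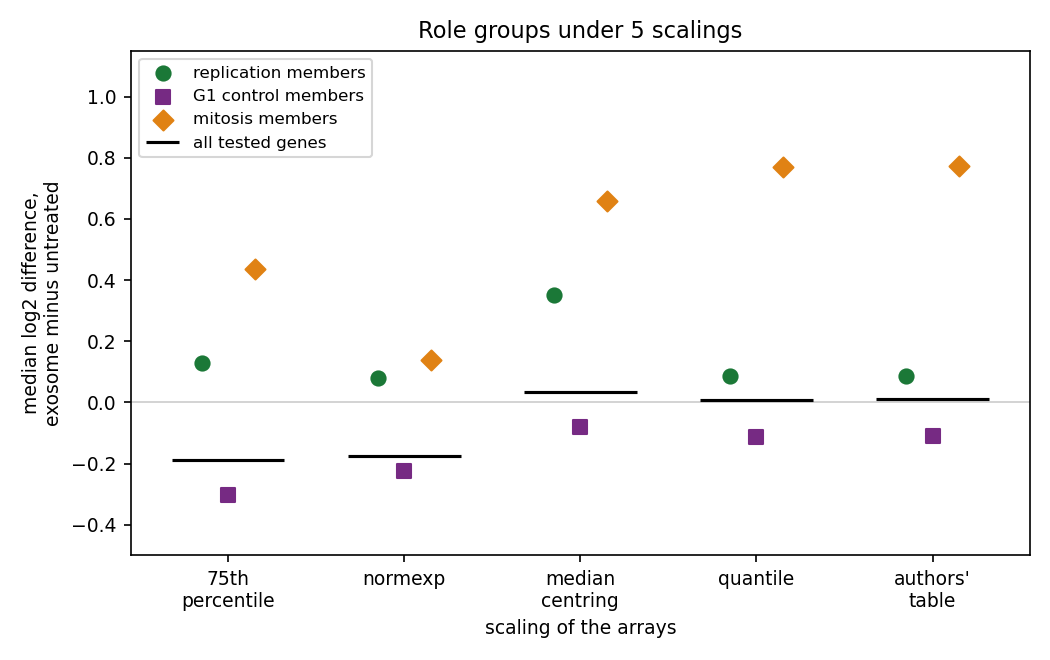
Median log2 difference, exosome minus untreated, of the tested replication, G1 control and mitosis members under 5 scalings of the arrays, with the median of all tested genes as a bar. Mitosis members lie highest and G1 members lowest in each scaling.

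Other genes of the same processes, from wider lists, had medians in the reverse order of the members' under the 75th percentile. The wider mitosis list was lowest there, below the −0.19 of all tested genes. Under quantile normalization the medians ran in the members' order but lay close together, at 0.17 for mitosis, 0.15 for replication and 0.12 for G1. Of 27 tested genes of a wider mitosis list 5 rose and 5 fell, with a median of −0.30, beside 14.6% and 29.0% of all tested genes. Quantile normalization gave 9 and 0 with a median of 0.17, beside 20.2% and 16.1% of all. The rises were led by Cks1b, a Cdk-binding subunit (0.83 ± 0.15), Bub3, a checkpoint protein (0.80 ± 0.16), and Pttg1, which encodes securin (0.64 ± 0.14). The falls were led by Racgap1, which acts in cytokinesis (−0.82 ± 0.20), Espl1, the protease separase (−0.52 ± 0.13), and Ube2c, which adds ubiquitin to mitotic cyclins (−0.87 ± 0.22). Those 3 falls missed the test under quantile normalization (−0.39, −0.12 and −0.60). With the probes of a gene averaged, Bub3 was at −0.01 and Cks1b missed at 0.30. Among fits without 1 array, Cks1b missed without untreated 2 (0.80), Bub3 without untreated 2 or 3 (0.77 to 0.80) and Pttg1 without exosome 1 or untreated 2 or 3 (0.59 to 0.61). Racgap1 missed without exosome 1 or 3 or untreated 2 or 3 (−0.81 to −0.67), Espl1 without exosome 1 or untreated 2 or 3 (−0.49 to −0.45) and Ube2c without exosome 1 or 3 or untreated 2 or 3 (−0.92 to −0.69).

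Of 34 tested genes of a wider replication list 3 rose and 6 fell, with a median of −0.03, beside 14.6% and 29.0% of all tested genes. Quantile normalization gave 8 and 2 with a median of 0.15, beside 20.2% and 16.1% of all. Prim2, a primase subunit (0.86 ± 0.14), Cdc45, which activates the Mcm ring (0.63 ± 0.15), and Rfc1, of the clamp loader (0.62 ± 0.19), rose. Pole, the leading-strand polymerase (−0.85 ± 0.14), Asf1b, a histone chaperone (−1.22 ± 0.21), and Orc5, of the origin recognition complex (−0.96 ± 0.17), led the falls. Prim2 and Asf1b passed in every fit without 1 array. Cdc45 missed without exosome 1 or untreated 2 or 3 (0.59 to 0.68), Rfc1 without exosome 1 or 3 or untreated 1, 2 or 3 (0.43 to 0.68), Pole without untreated 2 (−0.78) and Orc5 without untreated 2 (−0.92). Cdc45 also missed under normexp (0.30), Pole under quantile normalization (−0.36), and Rfc1 with its probes averaged (0.19).

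Of 25 tested genes of a wider G1 list 6 rose and 4 fell, with a median of −0.02, beside 14.6% and 29.0% of all tested genes. Quantile normalization gave 7 and 2 with a median of 0.12, beside 20.2% and 16.1% of all. Cdkn1a, the Cdk inhibitor that answers DNA damage, read 1.60, 1.73 and 1.66 on the exosome arrays, against 2.43, 2.36 and 2.43 on the untreated arrays. It fell by 0.74 (SE 0.11, adjusted p = 0.00998) with no overlap, and passed in every alternative tried. Cdkn2b, an inhibitor of Cdk4 and Cdk6 (−0.63 ± 0.14), and Lin37, of the complex that represses cell cycle promoters (−0.63 ± 0.14), fell as well. Rbl2, a relative of the retinoblastoma protein (0.70 ± 0.16), Mnat1, of the kinase that activates Cdks (0.64 ± 0.14), and Btg2, an antiproliferative gene (0.67 ± 0.16), rose. Lin37 missed under quantile normalization (−0.37), and Cdkn2b under median centring (−0.41). Among fits without 1 array, Cdkn2b missed without exosome 1 or untreated 2 or 3 (−0.63 to −0.61), Lin37 without exosome 1 or untreated 3 (−0.59 to −0.58) and Rbl2 without exosome 1 or untreated 2 or 3 (0.60 to 0.71). Mnat1 missed without exosome 1 or untreated 2 or 3 (0.61 to 0.68), and Btg2 without exosome 1 or 3 or untreated 2 or 3 (0.58 to 0.69).

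Several markers of other cell types fell or rose beside these genes. Summed signals relative to the 75th percentile are given for each marker list. The counts of markers that passed stand beside 14.6% of all tested genes higher and 29.0% lower. Some depended on the scaling. Under quantile normalization, beside 20.2% and 16.1% of all, 2 macrophage markers were lower and 1 stromal marker higher, with 0 endothelial and 0 germ cell markers lower. The other counts below were the same there. The 6 markers of peritubular myoid cells, which can divide in culture, summed to 27.4 to 34.2 on the exosome arrays, against 43.4 to 46.6 on the untreated arrays, and 3 of 6 fell. The 10 macrophage markers summed to 8.08 to 18.8, against 19.7 to 20.8, with 4 of 10 lower. The low end was exosome 3, where Cd68 read −3.45, against 3.15 and 3.35 on exosome 1 and 2. Without Cd68, their brightest gene, the macrophage sums were 7.99 to 8.62 on the exosome arrays, against 9.59 to 10.6 on the untreated arrays. The 4 endothelial markers with a probe summed to 1.07 to 1.43, against 0.611 to 0.809, with 2 of 3 tested higher and 1 lower. The 5 Sertoli cell markers with a probe summed to 10.0 to 11.9 on the exosome arrays, against 17.3 to 25.0 on the untreated arrays, with 1 of 3 tested lower and Amh and Gata1 not well above background on any array. That sum was mostly Clu, which other cells also express. Without Clu it was 1.02 to 2.28 on the exosome arrays and 1.22 to 1.92 on the untreated arrays, which overlap. The 6 stromal progenitor markers summed to 49.9 to 53.3, against 48.9 to 51.8, with 2 of 6 higher. Without Dcn, their brightest gene, the stromal sums were 14.0 to 17.9 on the exosome arrays, against 10.9 to 13.5 on the untreated arrays. The 6 germ cell markers summed to 0.072 to 0.103, against 0.081 to 0.176, with 1 of 2 tested lower. The 7 Leydig cell markers summed to 74.6 to 88.5 on the exosome arrays and 75.8 to 85.1 on the untreated arrays, with 1 of 5 tested lower. That sum was mostly Hsd3b1. Without Hsd3b1 it was 22.8 to 25.9 on the exosome arrays, against 26.9 to 33.5 on the untreated arrays, which do not overlap. Lhcgr and Nr5a1, defining genes of Leydig cells, were not well above background on any array. The part of these markers in the changes of cell cycle genes was not tested.

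**Figure D5:**
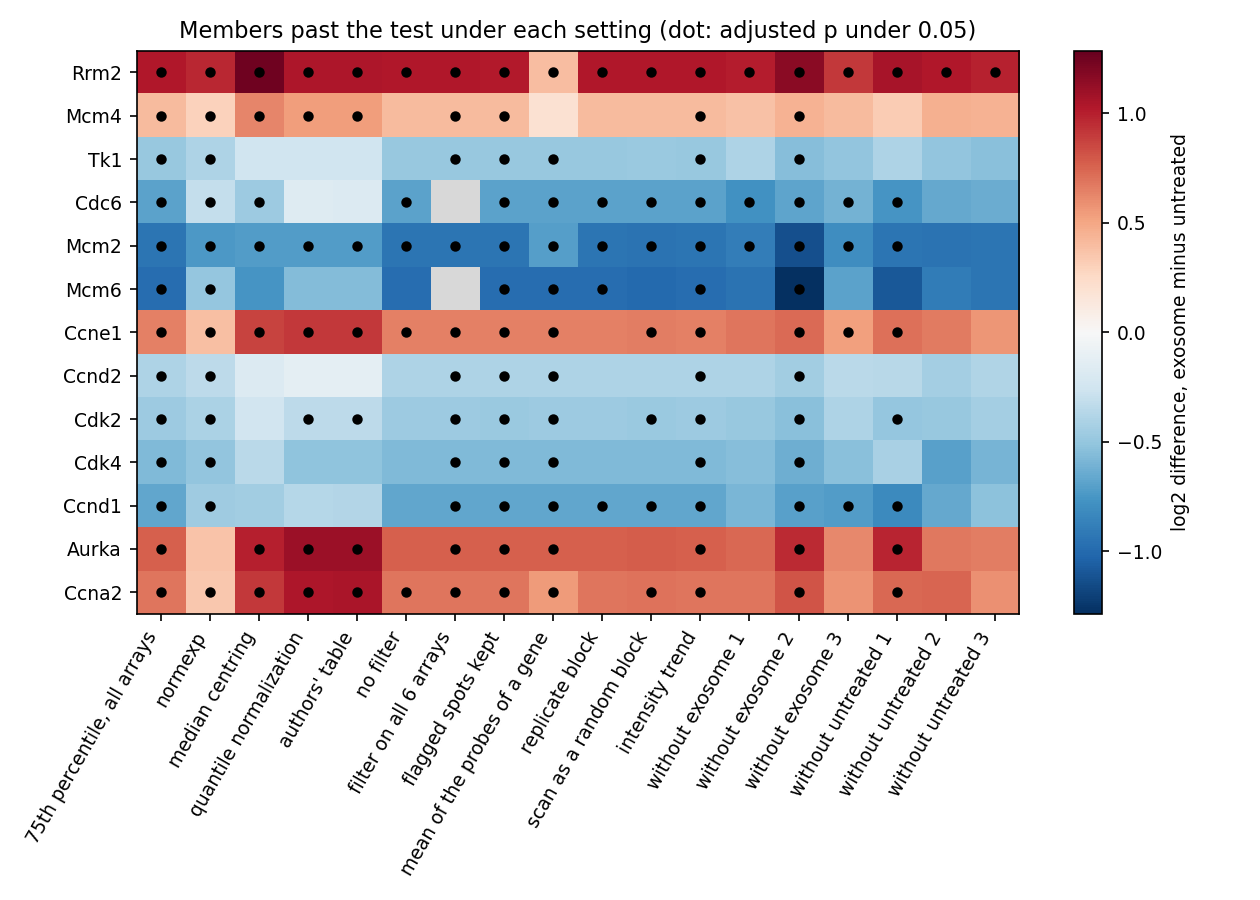
Log2 difference, exosome minus untreated, of the 13 members past the test (rows) under each processing setting (columns), coloured from blue (lower) to red (higher), with a dot where the adjusted p is under 0.05 and grey where the gene was not tested. Rrm2 keeps its dot in every column, and the other 12 members lose it without untreated 2 and without untreated 3.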

How the data were processed

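RNA of 6 samples, 3 exosome and 3 untreated, was read on Agilent one-colour rat arrays. Per the file headers, the deposited intensity values are Agilent Feature Extraction 11.0.1.1 processed signals, corrected for background on each array separately, with no scaling across arrays. The authors' deposited table holds log2 values whose median was 5.68 on every array and whose scaling is not given in the sources used here; each column correlated at 0.996 or above with the scanner values of its own array. The number of arrays limits the precision.

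Control spots and flagged spots were left out, spots of a probe were averaged, and each array's 75th percentile of log2 intensity was subtracted. Probes were named through RefSeq accessions with symbols of assembly GRCr8. In limma 3.58.1 (R 4.3.3), 20435 of 30367 probes were tested with lmFit and eBayes and p-values were adjusted by the Benjamini-Hochberg method over all of them. The procedure was also run on simulated data with independent noise. Those data held no scan effect and no shift that depended on signal, so they say nothing about either in the real arrays. The alternatives were normexp (offset 50), quantile normalization, median centring, the authors' table, other filters, averaged probes, blocks and leaving out each array. Normexp was run on median rather than mean spot signals, which were not in the columns used here.

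Second probes under each scaling, and marker sums without their brightest gene, were added after seeing the data. All members are named, with array values for those past the test and those the roles turn on. In each wider list the 3 genes of smallest p in each direction are named. Members, lists and rules were chosen with earlier results of these data known.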

Additional observations from a re-analysis of the deposited data

How the results depend on the processing

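With the replicate number as a block, 781 genes were higher and 2401 lower, and 1 member was higher and 4 lower. The numbers did not pair the samples: deviations of same-numbered samples correlated at −0.09, −0.03 and −0.02, and no sample correlated best with its own number. Over all tested genes the higher count was 2629 under median centring, 863 with no filter and 128 to 1716 without 1 array, and the lower count was 1766 under quantile normalization, 1823 under median centring, 1783 in the authors' table and 789 to 3277 without 1 array. Members higher and lower numbered 8 and 3 under quantile normalization, 10 and 2 under median centring, 8 and 3 in the authors' table, 3 and 2 with no filter, 3 and 4 with scan as a random block, and 1 to 6 and 0 to 10 without 1 array. The replication median was 0.35 under median centring, 0.36 with the filter on all 6 arrays, −0.037 with probes averaged and −0.021 to 0.14 without 1 array. The G1 median was −0.11 under quantile normalization, −0.082 under median centring, −0.11 in the authors' table and −0.45 to −0.20 without 1 array. The mitosis median was 0.14 under normexp, 0.77 under quantile normalization, 0.66 under median centring, 0.77 in the authors' table, 0.34 with no filter, 0.34 with the filter on all 6 arrays and 0.31 to 0.54 without 1 array. Signs of single genes turned with probes averaged for Mcm3 (−0.18) and Bub3 (−0.012), without 1 array for Rrm1 (−0.13 to 0.63), Ccnd3 (−0.079 to 0.37) and Ccnb1 (−0.17 to 0.082), under quantile normalization for Cdk6 (0.25) and Ccnb1 (0.25), under median centring for Cdk6 (0.031), E2f1 (0.015) and Ccnb1 (0.16), and in the authors' table for Cdk6 (0.25) and Ccnb1 (0.25). The cause of these changes was not tested. Among the named genes' other values, 651 stayed on the same side of the threshold with the same sign, 153 lost the call and 27 gained it. Dim probes limit the reading of Mcm6, Cdc6, Cdt1, Bub1 and Aurkb, which were not well above background on every array.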
